A study of Mus musculus with 14 samples.

Results

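Glycolysis and the response to low oxygen were described through 39 mouse genes, taken by symbol from a list of glycolytic enzymes, transporters and regulators (24 genes) and of other genes of the hypoxia-inducible factor HIF (15 genes), out of 55291 symbols in each of 2 tables. The rule went by gene symbol, not by a measured threshold. All 39 symbols were in both tables, and all 39 passed the filter on low counts in both comparisons. Messenger RNA was sequenced in 14 libraries from 2 experiments. In the first, whole splenocytes came from OT-1 mice, a transgenic strain in which the receptor of CD8+ T cells recognises ovalbumin. They were given 1 µg/mL of ovalbumin peptide and 200 U/mL human interleukin-2, in the presence of 100 nM ND-646, which blocks acetyl-CoA carboxylase (4 libraries), or of DMSO vehicle (4 libraries). These cultures ran for 3 days and, after a split, for 4 more. In experiment 2, CD8+ T cells were taken from MCA205 fibrosarcomas grown for 14 days under the skin of C57BL/6 mice (3 libraries) and from spleens (3 libraries), by dissociation of the tumours, magnetic pre-enrichment and sorting. The 14 days of tumour growth are recorded for the spleen libraries as well, so spleen is not taken here as a tumour-free control. The labels call the genotype WT in all 14 libraries and the tumour samples pooled, but not what was pooled. They give no age, and nothing in them makes replicates separate mice or cultures, so the p-values rest on library-to-library spread that may be technical.

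Glycolysis splits glucose into pyruvate, and lactate dehydrogenase and lactate export let the pathway run when pyruvate is not burnt in mitochondria. HIF is a dimer whose alpha subunit is marked for destruction by prolyl hydroxylases when oxygen is present. T cells raise glycolysis when they are activated, and HIF raises many glycolytic genes and its own hydroxylases in low oxygen, by binding a short core sequence in hypoxia response elements.

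That core is written ACGTG or GCGTG, and it was searched on both strands of the promoters that RefSeq gives for build GRCm38.p6, from 250 bases before to 50 bases after each gene start. The first form overlaps the E-box CACGTG, which is bound by other factors such as Myc. The table held 52 promoters of 34 of the 39 genes. It had no entry for Nrn1, Slc6a8, Slc2a3, Ndrg1 and Bnip3l. A core stood in 41 of the 52 promoters (78.8%), against 60.1% of the promoters of genes tested here and 43.8% of all 32851 promoters of the same length. By gene, 32 of 34 (94.1%) held one in at least 1 promoter, and the exceptions were Tpi1 and Gpi1. The share was 65.9% of tested genes and 46.7% of all genes in the table. A gene with more promoters has more windows to hold a core. The members had 52 for 34 genes, and the tested genes 14321 for 11240. The median promoter of the members had 21 CpG pairs, against 19 in tested genes and 7 in the whole table, and the core itself contains a CpG. The sequences below are the bases just before the gene start, 5′ to 3′ on the gene's strand, with cores on either strand in capitals; an unbroken CACGTG holds 2 overlapping cores. They are shown for genes on which the comparisons below turn, with Tpi1 as one that has no core in this window.
Slc16a3, chr11:120948947-120949066, plus strand: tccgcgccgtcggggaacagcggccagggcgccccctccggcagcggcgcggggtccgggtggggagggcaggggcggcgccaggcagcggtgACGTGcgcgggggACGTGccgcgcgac
Bnip3, chr7:138909507-138909626, minus strand: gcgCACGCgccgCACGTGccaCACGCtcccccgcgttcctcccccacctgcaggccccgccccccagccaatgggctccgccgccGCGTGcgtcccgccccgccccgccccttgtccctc
Ldha, chr7:46845644-46845803, plus strand: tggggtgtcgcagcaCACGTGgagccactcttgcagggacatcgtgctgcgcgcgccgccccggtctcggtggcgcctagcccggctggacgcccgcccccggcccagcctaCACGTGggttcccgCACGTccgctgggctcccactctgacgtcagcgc
Pgk1, chrX:106186940-106187099, plus strand: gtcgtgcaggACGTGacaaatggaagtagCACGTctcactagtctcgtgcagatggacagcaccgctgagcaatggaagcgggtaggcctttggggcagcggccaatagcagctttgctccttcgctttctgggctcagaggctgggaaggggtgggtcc
Pdk1, chr2:71873104-71873223, plus strand: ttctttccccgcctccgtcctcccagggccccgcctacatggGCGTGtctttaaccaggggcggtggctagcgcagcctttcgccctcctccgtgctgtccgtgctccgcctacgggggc
Tpi1, chr6:124814159-124814278, minus strand: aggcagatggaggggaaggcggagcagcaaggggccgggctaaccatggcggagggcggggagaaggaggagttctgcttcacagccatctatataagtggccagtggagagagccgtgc
In Slc16a3 the 2 cores lie within 30 bases of the start, at -27 and -14 counted from it. Bnip3 has 5, from -117 to -35. The window of Ldha belongs to the first of the starts that RefSeq gives the gene and holds 5 cores and 2 E-boxes, but its last bases do not lie in a coding transcript of Ldha in GENCODE M21. Those of the second start do, and that promoter holds 1 core, at -59, and no E-box. Such matches are descriptions of the letters in these windows, and binding was not measured.

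Library totals, in units of 1e+06 counts (M), ran from 27.9 to 33.8 M in ND-646, from 23.5 to 29.0 M in vehicle, from 19.6 to 21 M in tumour and from 19.8 to 20.8 M in spleen. The limit that a count of 0 allows, 3 counts in a library, equals 0.0887 to 0.153 CPM (counts per 1e+06 counts of a library), counting error only. In the ND-646 cultures the markers of CD8 T cells summed to 6971 to 7217 CPM, against 7028 to 7355 CPM in vehicle. Genes of the cell cycle were lower in ND-646 in 25 of 25, summing to 2534 to 3076 CPM against 4374 to 4548 CPM, and macrophage, monocyte and neutrophil markers were lower in 5 of 6, summing to 59.5 to 72.5 CPM against 248 to 263 CPM; C1qc, S100a8, S100a9 and Csf3r were at 0 in both groups. Markers of CD4 and regulatory T cells were higher in 2 and lower in 5 of 8, summing to 949 to 971 CPM in ND-646 against 1350 to 1380 CPM in vehicle. Genes of RNA quality and handling stress were higher in 4 and lower in 2 of 9, summing to 3083 to 3394 CPM in ND-646 against 2012 to 2145 CPM in vehicle. In the tumour libraries, 24 of 24 tested fibroblast and fibrosarcoma markers were higher and summed to 13321 to 19112 CPM, against 5.52 to 23.0 CPM in spleen, where Lum was at 0. Macrophage, monocyte and neutrophil markers were higher in 8 of 11, summing to 350 to 481 CPM in tumour against 15.6 to 19.6 CPM in spleen, with C1qa, Fcgr1, Cd14, Ms4a7 and S100a8 at 0 in spleen alone. Endothelial markers were higher in 8 and lower in 1 of 9, and summed to 60.0 to 69.5 CPM in tumour against 161 to 172 CPM in spleen, where Tek, Tie1 and Cldn5 were at 0. Cell cycle genes were higher in 25 of 25, at 3860 to 4226 CPM in tumour against 921 to 1091 CPM in spleen. CD8 markers summed there to 4749 to 6401 CPM, against 10101 to 10189 CPM in spleen, and 16 of 17 were lower. B cell markers were lower in 6 of 6, summing to 59.3 to 75.6 CPM in tumour against 809 to 843 CPM in spleen. Markers of CD4 and regulatory T cells were higher in 5 of 8. They summed to 406 to 536 CPM in tumour against 43.0 to 48.7 CPM in spleen. Dendritic cell markers were higher in 5 and lower in 1 of 10, at 435 to 562 CPM against 96.5 to 149 CPM. Tumour and spleen libraries thus both held transcripts that CD8 T cells are not known to make, in spite of the sort. Genes of RNA quality and handling stress were higher in 9 of 10, summing to 7695 to 9927 CPM in tumour against 2228 to 2852 CPM in spleen. The part of these differences in the results on the 39 genes was not tested. A scaling by CD8 markers, given below, divides each library by its summed CD8 marker counts. It shifts all genes by a similar amount and takes out no RNA of other cells, so it cannot test their part. In such mixed RNA, fewer cells of a type and less RNA per cell cannot be told apart.

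The 24 glycolysis genes took 1.81%, 2.07%, 1.80% and 1.61% of all counts in the 4 ND-646 libraries, against 1.77%, 1.82%, 1.65% and 1.71% in the 4 vehicle libraries. These groups overlap. In tumour libraries their share was 1.15%, 1.14% and 1.21%, against 0.444%, 0.436% and 0.436% in spleen. The 15 other HIF genes took 0.215% ± 0.00760 of counts in ND-646, against 0.168% ± 0.00369 in vehicle (SD, n = 4 each), and 0.184% ± 0.0128 in tumour, against 0.0611% ± 0.00145 in spleen (SD, n = 3 each). No ND-646 library fell into the vehicle range for these, and no tumour library into the spleen range for either group of genes. In the cultures Hif1a itself was the most abundant of the 15, at 852 ± 45.2 CPM in ND-646 and 550 ± 17.1 CPM in vehicle. The next, Ddit4, was lower in ND-646, at 314 ± 32.5 CPM against 379 ± 14.9 CPM in vehicle. The share in the cultures thus follows the mRNA of the factor most and does not measure its targets as a group. The 2 tables were scaled separately, so no test was made between cultures and sorted cells.

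**Figure D1:**
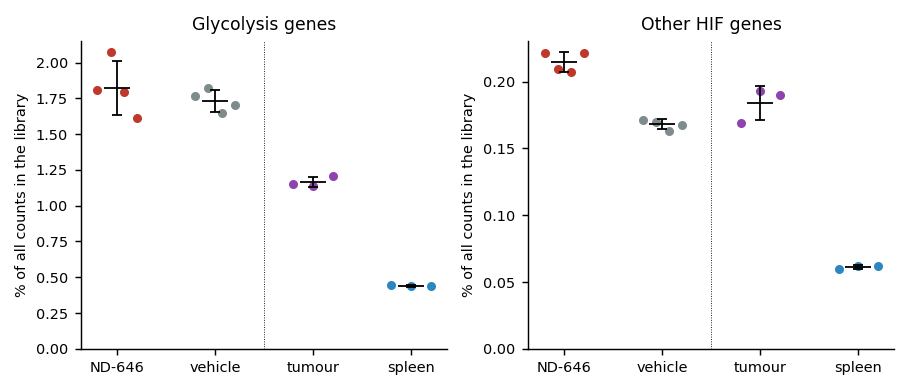
Share of all counts in each library (%, vertical axis) taken by the 24 glycolysis genes (left) and the 15 other HIF genes (right); points are libraries and black bars the mean ± SD. ND-646 and vehicle overlap for glycolysis and are apart for the other HIF genes, and tumour lies above spleen in both. Hif1a itself is the most abundant of the 15 in the cultures.

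The first comparison asked how ND-646 altered these transcripts in activated cultures. The changes were small and went both ways. Of the 39 genes, 20 were higher and 11 lower in ND-646 at an adjusted p under 0.05 (edgeR's quasi-likelihood test, Benjamini-Hochberg over all genes), and 8 did not pass. Among all 14251 genes tested, 29.8% were higher and 26.5% lower. The median log2 fold change was 0.12 over the glycolysis genes and 0.27 over the other HIF genes, against 0.01 over all genes. Without ND-646 library 2 the median of the glycolysis genes was 0.03. Groups did not overlap for 23 of the 39, against 51.1% of all genes tested. Glycolysis divided into 10 higher, 7 lower and 7 not called, and the other HIF genes into 10 higher, 4 lower and 1 not called. Nrn1 alone of the 39 passed edgeR's test for a change beyond 1.5-fold. Of all 14251 genes tested, 489 passed it as higher and 703 as lower.

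**Figure D2:**
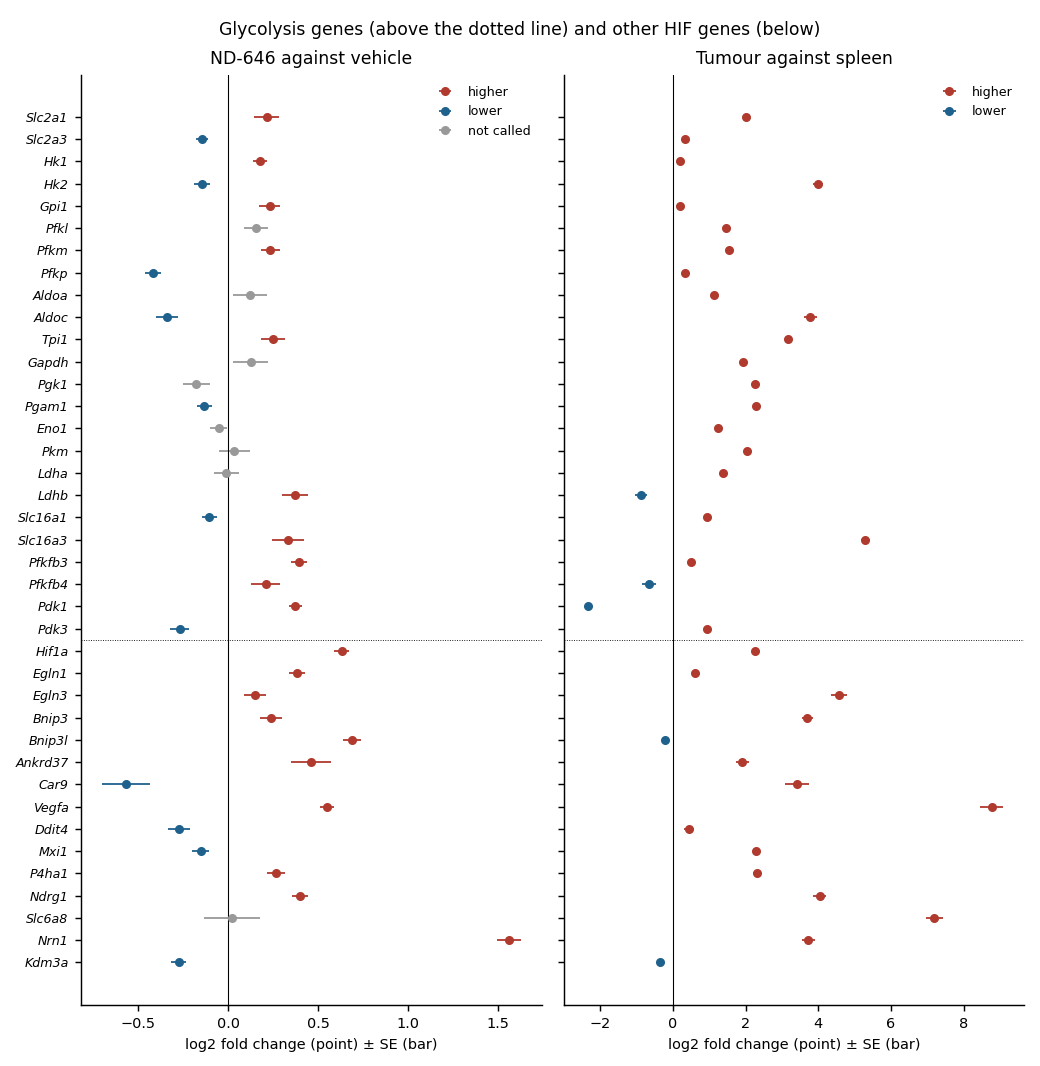
Log2 fold change (point) and standard error (bar) of each of the 39 genes, for ND-646 against vehicle (left) and tumour against spleen (right, on a wider scale); colours show higher, lower and not called at an adjusted p under 0.05. ND-646 spreads from -0.57 for Car9 to 1.56 for Nrn1, and tumour from -2.34 for Pdk1 to 8.77 for Vegfa.

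The glucose carriers moved in opposite directions. Slc2a1, the basal glucose carrier of many cells, measured 84.6, 70.5, 76.9 and 89.9 CPM in ND-646, against 69.8, 72.8, 64.4 and 70.1 CPM in vehicle (log2 fold change 0.21 ± 0.07 SE, edgeR adjusted p = 0.0174). Its groups overlap, because ND-646 library 2 lies below vehicle library 2, and the call was lost without ND-646 library 1 (adjusted p = 0.0878) or vehicle library 3 (0.0511). Slc2a3, the high-affinity carrier of neurons and lymphocytes, was lower, at 227 ± 6.32 CPM in ND-646 and 251 ± 4.43 CPM in vehicle (SD, n = 4 each). Within each library the log2 ratio of Slc2a1 to Slc2a3 averaged -1.50 in ND-646 and -1.86 in vehicle, without overlap (two-sided exact permutation p = 0.0286, the smallest that 4 against 4 allows, and 0.0343 adjusted over 6 ratios).

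Of the 9 preparatory enzymes, which spend ATP on glucose and split it, 4 were higher, 3 lower and 2 not called. The hexokinases, which trap glucose as its phosphate, parted. Hk2, the inducible form, measured 93.4, 94.8, 97.4 and 101 CPM in ND-646, against 111, 112, 99.5 and 104 CPM in vehicle (-0.15 ± 0.04, adjusted p = 0.00742). ND-646 library 4 lies above vehicle library 3, so the groups overlap. Hk1, the constitutive form, was higher, at 194 ± 8.71 CPM in ND-646 and 172 ± 1.09 CPM in vehicle, and the ratio of Hk2 to Hk1 was lower in ND-646 by 0.32 on the log2 scale (exact permutation p = 0.0286, adjusted 0.0343).

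Phosphofructokinase makes the committed step. Its platelet form Pfkp had 641, 712, 703 and 635 CPM in ND-646, against 925, 935, 874 and 868 CPM in vehicle (-0.42 ± 0.04, adjusted p = 2.58e-07). Every ND-646 library lay below every vehicle library, and Pfkp was the lowest called member of at least 5 CPM. The muscle form Pfkm was higher (0.23 ± 0.05, adjusted p = 0.00078), and the liver form Pfkl, at 98.5 ± 11.1 CPM in ND-646 and 88.5 ± 1.71 CPM in vehicle, did not pass (0.15, adjusted p = 0.0659), but was called higher without ND-646 library 2 (0.20, 0.0111) or 3 (0.19, 0.0259). Aldoc, one of the aldolases that cut the sugar, measured 116, 129, 110 and 99.9 CPM in ND-646, against 143, 147, 141 and 146 CPM in vehicle (-0.34 ± 0.06, adjusted p = 0.000426). Its groups do not overlap. Aldoa, the abundant aldolase, did not pass (0.12 ± 0.09), but was called higher without ND-646 library 4 (0.18, edgeR adjusted p = 0.0195). The isomerases Gpi1 (0.23 ± 0.06) and Tpi1 (0.25 ± 0.07) were higher with overlapping groups.

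Of the 5 payoff enzymes, which make ATP from the split sugar, 1 was lower and 4 did not pass. The lower one was Pgam1 (-0.13 ± 0.04, adjusted p = 0.0129), a mutase whose call was lost without vehicle library 2 (adjusted p = 0.06). Gapdh, the dehydrogenase of the pathway, measured 4825, 5881, 4961 and 4150 CPM in ND-646, against 4581, 4836, 4309 and 4440 CPM in vehicle (0.13 ± 0.10, adjusted p = 0.307). ND-646 library 2 was the highest of the 8 and library 4 the lowest. Without library 4 the gene was called higher (0.19, adjusted p = 0.0161). Pkm, the pyruvate kinase of proliferating cells, stood at 1862, 2209, 1774 and 1648 CPM in ND-646, against 1857, 1956, 1703 and 1800 CPM in vehicle (0.03 ± 0.08, adjusted p = 0.756). Here too ND-646 library 2 was the highest and library 4 the lowest of all. Pgk1, a kinase that makes ATP and whose promoter is shown above, had 1344, 1561, 1372 and 1158 CPM in ND-646, against 1560, 1619, 1481 and 1489 CPM in vehicle (-0.18 ± 0.08, adjusted p = 0.0713). Its groups overlap. It was called lower by DESeq2's Wald test (adjusted p = 0.0084), with DESeq2's size factors in edgeR (0.0433), with no filter on low counts (0.000361) and without ND-646 library 2 (-0.26, 0.000598). Estimated counts divide reads between near-identical copies by a model, and 90 copies of Gapdh, chiefly processed pseudogenes, held 1.61% of their joint counts in ND-646 and 1.60% in vehicle.

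Lactate genes also split by isoform. Ldha, the dehydrogenase subunit of glycolytic tissue, measured 1114, 1195, 984 and 971 CPM in ND-646, against 1105, 1152, 994 and 1046 CPM in vehicle (-0.01 ± 0.07, adjusted p = 0.903). The groups lie over each other. Ldhb, the heart-type subunit, was higher without overlap, at 18.8 ± 1.92 CPM in ND-646 and 14.5 ± 0.584 CPM in vehicle (0.37 ± 0.07, adjusted p = 0.000283). Of the lactate carriers, Slc16a3 (MCT4, an exporter) was higher (0.33 ± 0.09, adjusted p = 0.00929), a call lost without ND-646 library 1 (adjusted p = 0.0537). Slc16a1 (MCT1, which carries lactate both ways) was lower by a slight amount (-0.10 ± 0.04, adjusted p = 0.0334), and that call was lost without any one of ND-646 libraries 1 and 4 and vehicle libraries 1, 2 and 4.

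Of the 4 regulatory kinases, 3 were higher. Pdk1, which switches off pyruvate dehydrogenase and so keeps pyruvate from mitochondria, measured 121, 120, 112 and 116 CPM in ND-646, against 89.7, 89.6, 91.5 and 91.6 CPM in vehicle (0.37 ± 0.04, adjusted p = 9.47e-08). Its paralog Pdk3 went the other way, with 25.5, 24.6, 24.0 and 24.4 CPM in ND-646, against 30.2, 31.7, 28.2 and 28.6 CPM in vehicle (-0.27 ± 0.05, adjusted p = 0.000301). Neither gene's groups overlap. Pfkfb3, which makes the activator of phosphofructokinase, was higher (0.39 ± 0.04, adjusted p = 5.61e-07). Pfkfb4, of the same family, was called higher at 8.43 ± 0.445 CPM in ND-646 and 7.31 ± 0.333 CPM in vehicle (0.21 ± 0.08, adjusted p = 0.0333), and lost the call without any one of ND-646 libraries 1 and 4 and vehicle libraries 1, 2 and 4.

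The HIF factor and its oxygen sensors were all higher. Hif1a, the oxygen-regulated subunit, measured 889, 790, 849 and 882 CPM in ND-646, against 567, 563, 532 and 539 CPM in vehicle (0.63 ± 0.04, adjusted p = 6.37e-10, a fold of 1.55). The lowest ND-646 library was well above the highest vehicle library. Egln1, the main hydroxylase that marks HIF for destruction, stood at 121 ± 7.70 CPM in ND-646 and 92.6 ± 1.55 CPM in vehicle (0.38 ± 0.04, adjusted p = 6.63e-07). Egln3, an inducible hydroxylase, was at the threshold (0.15 ± 0.06, adjusted p = 0.048), with overlapping groups, and leaving out any library but ND-646 library 2 ended the call. Transcripts were measured here, and HIF protein was not.

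Among the 12 other HIF targets, 7 were higher, 4 lower and 1 not called. The largest rise of all 39 was that of Nrn1, which encodes neuritin, a membrane-anchored protein first known from neurons. It measured 54.0, 55.6, 47.3 and 54.7 CPM in ND-646, against 19.1, 15.9, 17.6 and 19.4 CPM in vehicle (1.56 ± 0.07, adjusted p = 4.56e-12). Bnip3l, a receptor for the removal of mitochondria, had 163, 171, 142 and 147 CPM in ND-646, against 98.1, 92.4, 98.4 and 97.8 CPM in vehicle (0.69 ± 0.05, adjusted p = 1.16e-08). Both were apart in all libraries. Vegfa, the growth factor of blood vessels, measured 129, 138, 126 and 129 CPM in ND-646, against 88.6, 90.6, 87.6 and 89.9 CPM in vehicle (0.55 ± 0.04, adjusted p = 8.29e-10). Ankrd37, an ankyrin repeat protein, had 5.94, 4.46, 5.55 and 5.73 CPM in ND-646, against 3.93, 4.09, 3.83 and 3.84 CPM in vehicle (0.46 ± 0.11, adjusted p = 0.00208). All ND-646 libraries were again above all vehicle libraries for both genes. Ndrg1, a stress-responsive gene (0.40 ± 0.04), P4ha1, a collagen prolyl hydroxylase (0.27 ± 0.05), and Bnip3, the paralog of Bnip3l (0.24 ± 0.06), were higher too.

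The 4 targets that were lower were Ddit4, Kdm3a, Mxi1 and Car9. Ddit4, an inhibitor of the growth kinase mTOR, measured 324, 287, 287 and 355 CPM in ND-646, against 380, 392, 358 and 386 CPM in vehicle (-0.27 ± 0.06, adjusted p = 0.00226). Kdm3a, a histone demethylase, had 81.7, 90.8, 91.8 and 86.6 CPM in ND-646, against 102, 106, 110 and 107 CPM in vehicle (-0.28 ± 0.04, adjusted p = 1.84e-05). Groups did not overlap for either. Mxi1, an antagonist of Myc, was lower with overlap (-0.15 ± 0.05), and Car9, a carbonic anhydrase at the cell surface, was lower at 2.61 ± 0.370 CPM in ND-646 and 3.88 ± 0.257 CPM in vehicle (-0.57 ± 0.13). Slc6a8, the creatine carrier, did not pass (0.02 ± 0.16, adjusted p = 0.92).

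**Figure D3:**
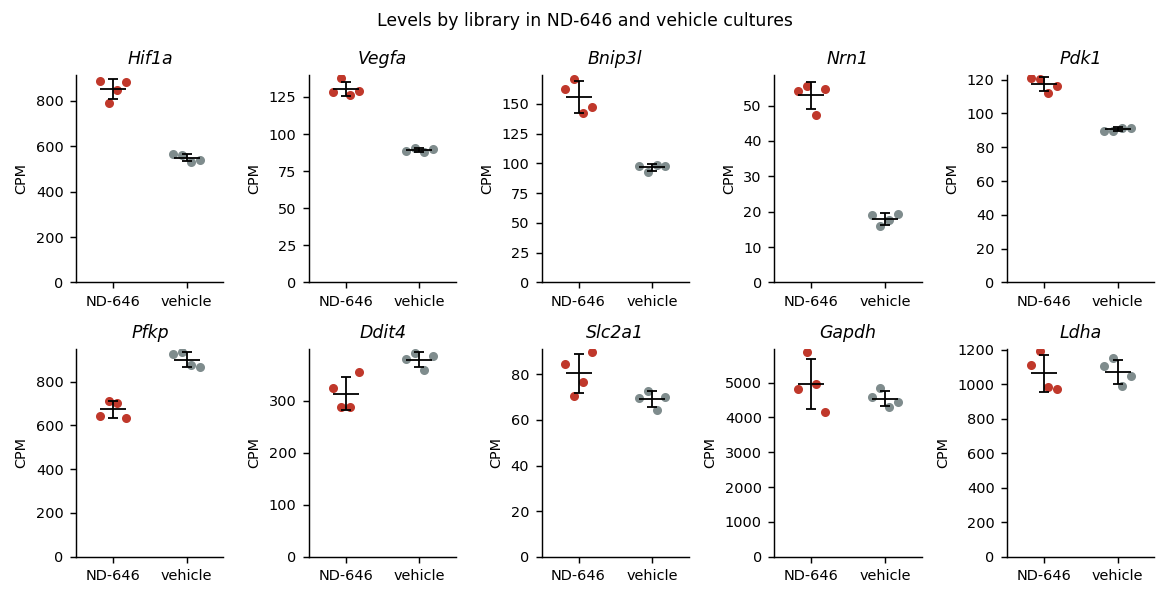
CPM (vertical axis, from 0) of 10 genes in each ND-646 and vehicle library; points are libraries in replicate order and black bars the mean ± SD. Hif1a, Vegfa, Bnip3l, Nrn1 and Pdk1 are higher and Pfkp and Ddit4 lower in ND-646 without overlap, while Slc2a1, Gapdh and Ldha overlap.

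Spread within ND-646 was wider than within vehicle for the glycolysis genes, with a median coefficient of variation of 7.82% in ND-646 and 4.38% in vehicle; over all genes it was 6.62% in ND-646 and 5.52% in vehicle. By a chi-square over genes, ND-646 libraries 1 and 4 differed by 5.35 per degree of freedom and libraries 2 and 3 by 3.83, while the other 4 pairs of ND-646 libraries differed by 7.86 to 12.2. The labels name no batch. Libraries 1 and 4, and libraries 2 and 3, were then paired because of this likeness in the same data. That choice narrows the spread within a pair, so the adjusted p-values and calls from pairs are descriptions, not tests. Against all vehicle libraries, Slc2a1 had a log2 fold change of 0.33 with libraries 1 and 4 alone and 0.07 with libraries 2 and 3 alone. Pfkl was called higher with 1 and 4 (0.29, adjusted p = 1.07e-06), and stood at -0.01 with 2 and 3. Gapdh was called higher with 2 and 3 (0.24, adjusted p = 0.0397) and stood at -0.01 with 1 and 4. The cell cycle sums were lower in libraries 1 and 4, at 2548 and 2534 CPM, than in 2 and 3, at 2830 and 3076 CPM; their part in these differences was not tested. Slc2a1, Tpi1, Slc16a1, Pfkfb4, Egln3, Bnip3 and Ankrd37 lost their calls with 2 and 3 alone, and Mxi1 with 1 and 4 alone. Fewer libraries can end a call with little change in size. With 2 and 3 alone, Tpi1 stood at 0.22, against 0.25 with all ND-646 libraries, and Bnip3 at 0.21, against 0.24. Slc2a1 and Egln3 (0.04, against 0.15) changed more.

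The comparison of tumour with spleen addressed sorted CD8+ T cells from 2 sites, in libraries that also held transcripts of other cells, as given above. The folds below are those of this mixed RNA. Here the changes were large and mostly upward. Of the 39 genes, 34 were higher and 5 lower in tumour, and all were called, while 43.6% of all 15042 genes tested were higher and 40.2% lower. The median log2 fold change was 1.31 over the glycolysis genes and 2.31 over the other HIF genes, against 0.03 over all genes. Groups did not overlap for any of the 39, and neither did they for 86.2% of all genes tested. Scaled by CD8 identity genes, the median over all genes moved by 0.88, and 83.2% of calls over all genes were higher instead of 52.0%. Under that scaling 36 members were higher and 1 was lower.

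Both glucose carriers were higher in tumour. Slc2a1 measured 157, 189 and 179 CPM in tumour, against 41.8, 42.2 and 45.3 CPM in spleen (2.02 ± 0.07, adjusted p = 1.21e-08), and Slc2a3 differed less (0.34 ± 0.08, adjusted p = 0.00241). All 9 preparatory enzymes were higher. Hk2 measured 96.0, 116 and 97.3 CPM in tumour, against 7.91, 5.74 and 5.78 CPM in spleen (3.99 ± 0.13, adjusted p = 1.1e-08), a fold of 15.9. Hk1 differed by only 0.20 ± 0.05, so that the ratio of Hk2 to Hk1 was higher in tumour by 3.80 on the log2 scale. Aldoc (3.78 ± 0.17) and Tpi1 (3.18 ± 0.07) stood out among the rest, and Gpi1 was nearest to 0 (0.20 ± 0.07, adjusted p = 0.0242), with the call lost without spleen library 1 (0.0522) or 2 (0.0612).

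All 5 payoff enzymes were higher, between 1.24 for Eno1, the enolase, and 2.29 for Pgam1. Gapdh had 2371, 2229 and 2409 CPM in tumour, against 656, 590 and 580 CPM in spleen (1.94 ± 0.06, adjusted p = 6.12e-09). Pkm had 2290, 2392 and 2471 CPM in tumour, against 581, 573 and 585 CPM in spleen (2.04 ± 0.05, adjusted p = 1.66e-09). Tumour libraries were close to each other for both enzymes. Pgk1 was higher too (2.27 ± 0.06, adjusted p = 2.77e-09). The copies of Gapdh held 2.19% of the joint counts in tumour and 3.00% in spleen, and those of Pkm 4.75% in tumour and 5.08% in spleen.

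Lactate genes split by isoform here too. Ldha measured 995, 897 and 980 CPM in tumour, against 362, 373 and 364 CPM in spleen (1.39 ± 0.05, adjusted p = 1.69e-08). Ldhb was lower, with 4.74, 6.11 and 4.59 CPM in tumour, against 10.8, 9.04 and 8.53 CPM in spleen (-0.88 ± 0.16, adjusted p = 0.000605), but stood at 0.01 when scaled by CD8 genes. The log2 ratio of Ldha to Ldhb, which no scaling alters, averaged 7.54 in tumour and 5.28 in spleen. Slc16a3 measured 72.3, 64.0 and 75.4 CPM in tumour, against 2.07, 1.45 and 1.85 CPM in spleen (5.29 ± 0.12, adjusted p = 1.43e-09). This fold of 39.3 was the largest of the glycolysis genes, and Slc16a1 differed less (0.93 ± 0.05).

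The regulatory kinases were divided, with 2 higher and 2 lower. Pdk1 was the most reduced of the 39, with 57.2, 73.5 and 66.6 CPM in tumour, against 344, 324 and 331 CPM in spleen (-2.34 ± 0.09, adjusted p = 1.34e-08), 5.06-fold lower. It was still lower when scaled by CD8 genes (-1.44 ± 0.17, adjusted p = 3.87e-06). Pfkfb4 measured 3.26, 2.77 and 3.54 CPM in tumour, against 4.19, 5.54 and 5.34 CPM in spleen (-0.65 ± 0.18, adjusted p = 0.00804), and stood at 0.21 with CD8 scaling. Pdk3 (0.93 ± 0.08) and Pfkfb3 (0.50 ± 0.05) were higher.

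Hif1a measured 447, 396 and 427 CPM in tumour, against 88.1, 88.3 and 86.9 CPM in spleen (2.27 ± 0.06, adjusted p = 2.41e-09). Egln3 was far higher, with 52.7, 84.9 and 66.8 CPM in tumour, against 3.28, 3.15 and 2.14 CPM in spleen (4.57 ± 0.23, adjusted p = 2.77e-07), and Egln1 by less (0.62 ± 0.05). Spleen libraries were near-equal for Hif1a, and tumour libraries varied more for Egln3.

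Of 12 other targets, 10 were higher. Vegfa measured 147, 239 and 205 CPM in tumour, against 0.386, 0.250 and 0.698 CPM in spleen (8.77 ± 0.32, adjusted p = 1.11e-07), the largest change of the 39. Slc6a8 had 71.5, 101 and 90.0 CPM in tumour, against 0.916, 0.499 and 0.349 CPM in spleen (7.19 ± 0.24, adjusted p = 2.2e-08). Ndrg1 had 172, 273 and 219 CPM in tumour, against 13.9, 13.5 and 12.8 CPM in spleen (4.04 ± 0.18, adjusted p = 2.28e-07). In all 3 genes tumour library 1 was the lowest and library 2 the highest of the tumour group. The fibroblast and fibrosarcoma markers summed to 13321, 19112 and 16975 CPM in tumour libraries 1, 2 and 3, in the same order, and the CD8 markers to 6401, 4749 and 5603 CPM, in the opposite order. Slc2a1, Hk2, Pfkl, Pfkm, Pdk1, Egln3, Ankrd37, Car9, P4ha1 and Nrn1 also went up from tumour library 1 to 3 to 2. Hk1, Pfkp, Ldha, Hif1a and Kdm3a went down in that order, and the other members did neither. With 3 libraries no correlation was computed. The part of fibroblast or fibrosarcoma cells in the levels of Vegfa, Slc6a8, Ndrg1 or any other member was not tested. Nrn1 (3.72 ± 0.18), Bnip3 (3.70 ± 0.15), Car9 (3.42 ± 0.34), P4ha1 (2.31 ± 0.11), Mxi1 (2.28 ± 0.08) and Ankrd37 (1.92 ± 0.18) followed. Ddit4 was called by a small margin (0.45 ± 0.13, adjusted p = 0.0123), and the call was lost without tumour library 1 (0.114).

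The remaining 2 targets were slightly lower, and both turned round under CD8 scaling. Kdm3a had 93.1, 85.8 and 85.9 CPM in tumour, against 115, 110 and 112 CPM in spleen (-0.35 ± 0.05, adjusted p = 0.000135), but stood at 0.53 when scaled by CD8 genes. Bnip3l had 99.9, 98.0 and 102 CPM in tumour, against 116, 116 and 117 CPM in spleen (-0.22 ± 0.04, adjusted p = 0.00101), but 0.66 with that scaling.

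**Figure D4:**
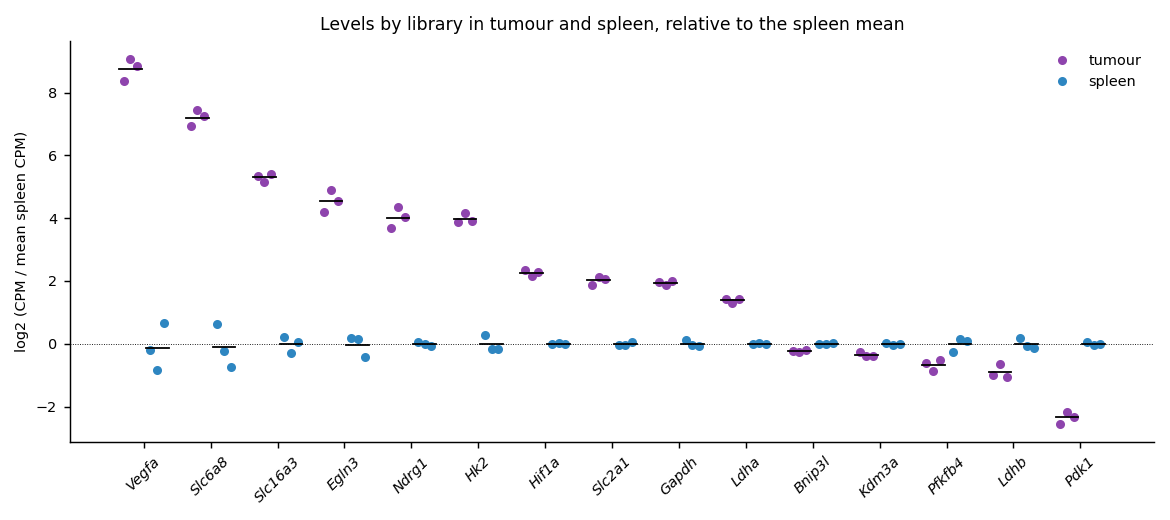
Log2 of each library's CPM over the mean spleen CPM of the same gene (vertical axis) for 15 genes; purple points are tumour libraries, blue points spleen libraries and black bars the mean of the log values. Tumour lies above spleen for the first 10 genes, most for Vegfa, and below it for the last 5, most for Pdk1.

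Directions in the comparisons were set side by side, which share no libraries. Both were higher for 16 of the 39 genes, against 11.5% of the 13261 genes tested in both; among them were Slc2a1, Slc16a3, Hif1a, Egln1, Egln3, Bnip3, Vegfa, Ndrg1 and Nrn1. Lower in ND-646 and higher in tumour were 10 members (14.6% of all genes), Hk2, Pfkp, Aldoc, Pgam1, Slc2a3, Slc16a1, Pdk3, Car9, Ddit4 and Mxi1. Higher in ND-646 and lower in tumour were 4 (14.9% of all genes), Pdk1, Ldhb, Pfkfb4 and Bnip3l, of which the last 3 were not lower in tumour under CD8 scaling. Kdm3a was the 1 member lower in both (8.3% of all genes), again not under CD8 scaling. The other 8 (14.1% of all genes), which include Gapdh, Pkm, Ldha, Aldoa, Eno1 and Pgk1, were higher in tumour and not called in ND-646. Over the 39 genes the log2 fold changes of the comparisons had a Pearson r of 0.11 and a Spearman rho of 0.05, given as a description over genes, which are not replicates. Pearson r was -0.24 over the 24 glycolysis genes, 0.14 over the 15 other HIF genes and -0.13 over all 13261 genes tested in both. The Spearman rho values were -0.26, 0.11 and -0.14 in that order.

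Ratios of paralogs within a library do not depend on scaling, and 6 were compared in each experiment. In ND-646 against vehicle, 5 of 6 differed without overlap, each at the smallest exact permutation p, 0.0286 (0.0343 adjusted). These were Slc2a1 to Slc2a3 (a log2 difference of 0.36), Slc16a3 to Slc16a1 (0.43), Hk2 to Hk1 (-0.32), Ldha to Ldhb (-0.38) and Pfkp to Pfkl (-0.57). Egln3 to Egln1 overlapped (-0.23, exact p = 0.0571). In tumour against spleen the same ratios differed by 1.68, 4.37, 3.80, 2.26, -1.15 and, for Egln3 to Egln1, 3.94, all without overlap, at an exact p of 0.1, which is the smallest that 3 against 3 allows. The Hk2 and Ldha ratios thus had opposite signs in the experiments, and the ratios of Slc2a1, Slc16a3 and Pfkp the same sign. Of all single genes tested, 51.1% did not overlap in ND-646 against vehicle and 86.2% in tumour against spleen. Ratios of other gene pairs were not computed, so these counts do not set paralogs apart from other genes.

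**Figure D5:**
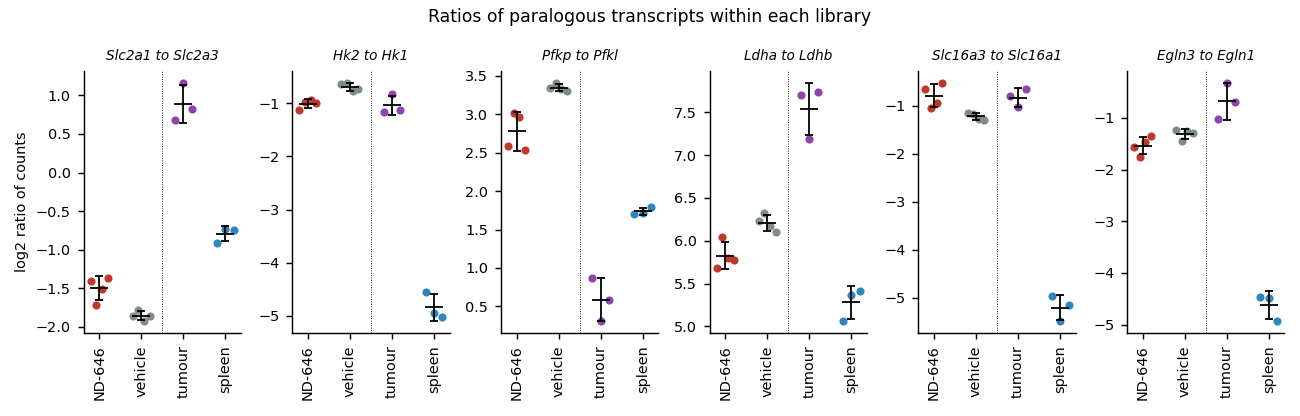
Log2 ratio of the counts of 2 paralogs in each library (vertical axis, a scale of its own in each panel) for 6 pairs; points are libraries and black bars the mean ± SD, with a dotted line between the experiments. In 5 pairs the libraries are apart between ND-646 and vehicle, and all 6 between tumour and spleen.

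Per length of the coding transcript (GENCODE M21), Slc2a1 made 30.1% ± 2.22 of the 2 glucose carriers in ND-646, against 25.1% ± 0.738 in vehicle, and 69.1% ± 3.65 in tumour, against 41.2% ± 1.68 in spleen. Hk2 made 31.0% ± 1.16 of the hexokinase pair in ND-646, against 35.9% ± 1.20 in vehicle, and 30.5% ± 2.67 in tumour, against 3.08% ± 0.555 in spleen. Pdk1 made 66.0% ± 0.442 of the pair with Pdk3 in ND-646, against 55.5% ± 1.60 in vehicle, and 39.4% ± 3.49 in tumour, against 86.3% ± 1.02 in spleen. For Egln3 beside Egln1 the share was 31.8% ± 2.54 in ND-646, against 35.3% ± 1.47 in vehicle, and 45.7% ± 6.12 in tumour, against 5.21% ± 0.868 in spleen. All 4 shares are means ± SD over 4 culture or 3 sorted libraries per group. By these shares, Hk1 made nearly all of the Hk1 and Hk2 pair in the spleen libraries and Egln1 nearly all of the Egln1 and Egln3 pair, and the inducible forms a larger part of each pair in the other 3 groups. Other hexokinases and Egln2 are not in these shares.

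Further genes of these pathways were counted over wider lists, and no list was tested as a set. Over all genes tested, 29.8% were higher and 26.5% lower in ND-646, and 43.6% higher and 40.2% lower in tumour. The counts of the lists below are to be read beside these shares. Of 19 tested genes of HIF factors and their control, 9 were higher and 5 lower in ND-646. Epas1, the other HIF alpha subunit, was at 5.35 ± 0.949 CPM in ND-646 and 20.5 ± 1.32 CPM in vehicle (-1.93 ± 0.10, adjusted p = 4.35e-11), opposite to Hif1a. Cited2, which competes with HIF for its coactivator, was also lower (-0.65 ± 0.06, adjusted p = 1.78e-08). In tumour 10 of the 19 were higher and 8 lower. The lead pair was Elob, an adaptor of the ubiquitin ligase that takes HIF (0.97 ± 0.05, adjusted p = 5.81e-08), and Siah1a, a ligase that acts on the hydroxylases (-1.54 ± 0.07, adjusted p = 4.5e-08). Epas1 in tumour, looked up after its value in the cultures was seen, was higher (2.30 ± 0.12, adjusted p = 8.11e-08), at 16.9 ± 1.14 CPM in tumour and 3.44 ± 0.140 CPM in spleen.

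Further HIF targets were higher in 14 and lower in 13 of 33 in ND-646, and higher in 28 and lower in 5 of 37 in tumour. The lead genes in ND-646 were Stc2, a secreted glycoprotein (2.41 ± 0.04, adjusted p = 6.31e-18), and Aldh1l2, a mitochondrial folate enzyme (2.80 ± 0.08, adjusted p = 3.74e-15). Both are known as targets of the stress factor ATF4. Their place in this list went by symbol, and control by HIF was not measured. In tumour the lead genes were Hmox1, heme oxygenase (6.13 ± 0.13, adjusted p = 1.04e-09), and Rbpj, the DNA-binding partner of Notch (3.06 ± 0.07, adjusted p = 1.43e-09). Other glycolytic genes were higher in 8 and lower in 4 of 20 in ND-646, led by Eno2 (0.66 ± 0.10) and Slc2a6 (0.72 ± 0.12), and higher in 7 and lower in 4 of 17 in tumour, led by Bpgm (1.96 ± 0.11) and Bsg, the partner protein of the lactate carriers (1.43 ± 0.07).

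Genes of the pentose phosphate pathway were higher in 2 and lower in 5 of 11 in ND-646, with Tkt, transketolase, lower (-0.26 ± 0.04, adjusted p = 9.48e-06) and Rpia higher (0.40 ± 0.06, adjusted p = 6.27e-05). In tumour 4 of 11 were higher and 3 lower, with G6pdx, the first enzyme, higher (0.84 ± 0.05) and Prps2 lower (-0.79 ± 0.05). Pyruvate entry and its dehydrogenase had 2 higher and 2 lower of 11 in ND-646, including Mpc1, a subunit of the mitochondrial pyruvate carrier (-0.32 ± 0.06), and Pdk2 (0.39 ± 0.11). In tumour 6 of 11 were higher and 2 lower, with Dld higher (0.55 ± 0.05) and Pdk2 lower (-1.69 ± 0.13), the same direction as its paralog Pdk1. Glycogen genes were higher in 6 and lower in 2 of 15 in ND-646, with Pygm, a glycogen phosphorylase, lower (-1.07 ± 0.10) and Phkb higher (0.52 ± 0.04). In tumour 12 of 15 were higher and 2 lower, with Phkg2 lower (-1.16 ± 0.06) and Phka1 at 12.8 ± 1.65 CPM in tumour and, below the level of 3 counts, 0.0327 ± 0.0283 CPM in spleen.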

How the data were processed

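The authors deposited 1 table of estimated counts per experiment, with 55291 gene symbols each; per the submitters' processing notes STAR, Salmon and DESeq2 were used. The build, annotation, settings and strandedness of their counting were not given in the sources used here. Promoter coordinates are those of RefSeq on GRCm38.p6, and transcript lengths those of GENCODE M21; whether the authors counted on either was not given. Per the labels' protocols, libraries were poly(A)-selected, directional and read in pairs of 150 bases. The deposited estimated counts are not normalized; 9.16% and 9.15% of values were not whole and all were rounded. Overlapping and antisense genes and near-identical copies are uncertain.

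Each experiment was fitted alone in edgeR 4.0.16 (R 4.3.3) by its robust quasi-likelihood test after filterByExpr and TMM scaling, with p-values over all genes tested adjusted by Benjamini-Hochberg and called at 0.05. CPM are counts per 1e+06 of the TMM-scaled library. Standard errors come from the F statistic. Ratios used a pseudocount of 0.5 and two-sided exact permutation tests (scipy 1.17.1). Copies were transcripts with 95% identity over 200 bases (blastn 2.17.0, GENCODE M21). RefSeq promoters were matched by symbol for 34 members, and the last bases of 40 of 52 lay in a GENCODE M21 coding transcript of the gene. The fit was tested on simulated data.

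Groups came from titles, 4, 4, 3 and 3 libraries. No pair of replicates agreed within sampling noise. Replicate numbers did not pair the groups. The 39 members, 17 wider lists (284 symbols, 7 not in the tables) and rules were chosen with earlier results of these data known. Genes with values per library are the 5 highest and 5 lowest called members of at least 5 CPM without overlap in each comparison, plus Hif1a, Slc2a1, Hk2, Gapdh, Pkm, Ldha, Pdk1 and Vegfa; each wider list gives its 2 lowest p-values. Alternatives were DESeq2 1.42.0, limma-voom 3.58.1, other filters, a replicate block, a 1.5-fold minimum, CD8 scaling, leaving out each library and, added after seeing the data, pairs of ND-646 libraries and exon-union length. Figures were drawn with matplotlib 3.10.9.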

Additional observations from a re-analysis of the deposited data

Results flagged for a closer look

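Each of the 39 genes was examined in the 2 groups of 4 libraries, 78 groups in all, for a library far from the other 3, and 4 groups were picked out; chance alone picks about 1 in 20. Ldhb in ND-646 library 1 stood at 21.6 CPM, against 17.7 to 18.1 CPM in the other 3. P4ha1 was at 83.1 CPM in ND-646 library 1, against 73.8 to 74.1 CPM. Egln3 was at 33.6 CPM in vehicle library 2, against 38.6 to 39 CPM. Bnip3l was at 92.4 CPM in vehicle library 2, against 97.8 to 98.4 CPM. Ldhb, P4ha1 and Bnip3l were called higher in ND-646 without the library in question as well, and Egln3 was not (0.10, edgeR adjusted p = 0.18).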

How the results depend on the processing

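With a 1.5-fold minimum (edgeR's glmTreat), 1 member was higher and 0 were lower in ND-646, against 20 and 11 as reported. At an unadjusted p under 0.05 of that test they were 3 and 0. Over all 14251 genes, 489 were higher and 703 lower with that minimum. In tumour 27 members were higher and 2 lower, against 34 and 5 as reported, and 4718 and 3722 of all 15042 genes. DESeq2 and limma-voom tested no minimum. The median of the glycolysis genes in ND-646 turned to -0.0079 with ND-646 libraries 1 and 4 only, a choice made after seeing the data. In tumour it was 1.38 with DESeq2 size factors and with DESeq2's Wald test, and that of the other HIF genes 2.38 with both, 2.33 with a minimum of 10 counts in total and 2.33 with no filter. With CD8 scaling these medians were 2.19 and 3.21, 1 member was lower, and Ldhb (0.015), Pfkfb4 (0.21), Bnip3l (0.66) and Kdm3a (0.53) turned round. Leaving out 1 library gave medians of 1.33 to 1.38 for glycolysis and 2.29 to 2.47 for HIF in tumour, 0.03 to 0.15 and 0.21 to 0.30 in ND-646, and 16 to 21 members higher and 9 to 12 lower in ND-646. The cause of these shifts was not tested. Replicate numbers only share a number (correlations of deviations -0.15 to 0.06 in the cultures): with the replicate block, 7864 genes were called in ND-646 and 12492 in tumour, Pfkl (0.15) and Pgk1 (-0.18) gained calls and Slc16a1 and Pfkfb4 lost them. Of the length-based shares, exon-union length moved 13 of 21 in ND-646 and in spleen. Those printed for glucose carriers, Hk2, Pdk1 and Egln3 were not among them. The glucose carriers, Pdk1, Pdk3, Egln1 and Egln3 have the same length by both definitions, so their shares could not move. That of Hk2 could, and in ND-646 it was 30.1% with exon-union length, against 31.0% as printed. Genes near 3 counts a library in spleen, such as Car9 and Vegfa, carry the widest errors.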
